A study of Bos grunniens with 36 samples.

Results

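Kinesins are motor proteins that use ATP to walk along microtubules or to take them apart at their ends. The genes described here are the 29 kinesins, of 20110 genes or transcripts in the authors' table of normalized values, whose gene name on the array is KIF followed by a number and a further letter or digit, if any. Each was read from the probe with the highest mean over all arrays. By their known roles they were placed in 3 groups: 10 mitotic kinesins (KIF2C, KIF4A, KIF11, KIF15, KIF18A, KIF18B, KIF20A, KIF20B, KIF22 and KIF23), 12 transport kinesins (KIF1A, KIF1C, KIF3A, KIF3B, KIF3C, KIF5B, KIF5C, KIF13A, KIF13B, KIF16B, KIF17 and KIF21A) and 7 others (KIF2A, KIF2B, KIF9, KIF12, KIF24, KIF26B and KIF27). The array design carried 32 kinesin symbols, and KIF14, KIF19 and KIF5A have no probe in the table.

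Mitotic kinesins are made in dividing cells, where they build and focus the spindle, move chromosomes and set up the midzone at which the daughter cells part. Transport kinesins work in resting cells as well and carry vesicles, endosomes, mitochondria and RNA along microtubules, for which some need light chains or adaptors. In the mammary gland the epithelium multiplies in pregnancy, and in lactation the alveolar cells send caseins, lactose and fat droplets to their apical side.

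The samples were biopsies of mammary parenchyma from 4 female yaks (Bos grunniens), taken before calving (day -30 and -15) and after it (day +1, +15, +30, +60, +120, +180 and +240), with fat and connective tissue dissected away. All 4 animals were sampled at each of the 9 days, from the left and the right rear gland in turn, and none carried a treatment. Total RNA of each biopsy was labelled with Cy3 and hybridised to 1 array of a cattle design, so that yak transcripts were read by bovine probes. The design text asks how each later day differs from day -30 and how each day differs from the one before. Values are log2 signals set to 0 at each array's 75th percentile, they compare 1 gene between arrays and not genes with each other, and the day of an array is that of its column in the table.

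Each table column equals 1 of the 36 scanner files in its values, but that file is always deposited under another sample, which has the same day for 9 columns and another day for 27. Which of these records is right cannot be told from the files, and every result below follows the table. By that record each slide of 4 arrays held the arrays of 1 day, so slide and day cannot be told apart. The 75th percentile ran from 1027 to 6444 intensity units over the arrays, and 68.6% to 89.3% of probes were well above background. All 4 arrays of day +15 (1027 to 2109 units), day +60 (1276 to 2508), day +180 (1527 to 4353) and day +240 (1270 to 3881) were dimmer than all arrays of day -30 (4850 to 5746). In fits with array brightness (the 75th percentile) as a covariate, the covariate therefore takes up part of the difference between these days. A call lost there cannot be assigned to brightness or to the day. Every luminal epithelial marker and milk protein gene on the lists was above background on at least 1 array of each day, and the milk protein list mean was 0.04 and -0.08 in yak 4 at day +120 and day +180 against 3.54 or more on the other arrays. Those arrays also had the highest T cell marker sums, 3.53 and 3.61 on the log2 scale.

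The probes are 60 bases long, and their positions are those the files give on the cattle assembly UMD 3.1. The following are the chosen probes of the 5 mitotic kinesins with the largest F over the days, printed from 5′ to 3′ to show which stretch of each cattle transcript was read. KIF20A lay at chr7:51222405-51222464 on the plus strand, KIF23 at chr10:16299582-16299641 on the plus strand, KIF11 at chr26:14070590-14070649 on the plus strand, KIF2C at chr3:101832496-101832555 on the minus strand and KIF18B at chr19:45259623-45259682 on the minus strand.
KIF20A: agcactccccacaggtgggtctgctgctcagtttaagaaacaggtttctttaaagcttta
KIF23: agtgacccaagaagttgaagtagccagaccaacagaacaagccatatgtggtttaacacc
KIF11: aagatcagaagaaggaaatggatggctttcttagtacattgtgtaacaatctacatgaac
KIF2C: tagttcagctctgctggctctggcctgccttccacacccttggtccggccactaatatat
KIF18B: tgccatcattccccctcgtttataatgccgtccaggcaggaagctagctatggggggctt

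For KIF15 the chosen probe and the other probes of the gene gave different time courses, described below, so all 4 are printed. The chosen probe lay at chr22:16576818-16576877, and those called B, C and D here at chr22:16580789-16580848, at chr22:16594601-16594660 and at chr22:16609515-16609835, all on the plus strand; the last interval is longer than the probe.
KIF15 chosen probe: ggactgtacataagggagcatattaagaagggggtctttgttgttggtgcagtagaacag
KIF15 probe B: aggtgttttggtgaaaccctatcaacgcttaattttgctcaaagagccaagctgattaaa
KIF15 probe C: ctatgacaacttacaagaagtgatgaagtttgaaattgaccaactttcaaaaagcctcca
KIF15 probe D: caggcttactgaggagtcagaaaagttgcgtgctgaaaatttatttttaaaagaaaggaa

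KIF4A and KIF22 were read in a similar way by a chosen probe that moved less than others of the same gene. The pair shown for KIF4A lay at chrX:85321378-85321437 and chrX:85321758-85321817, and the pair for KIF22 at chr25:26694574-26694720 and chr25:26696238-26697439, all on the minus strand.
KIF4A chosen probe: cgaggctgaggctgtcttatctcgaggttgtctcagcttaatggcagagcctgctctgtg
KIF4A other probe: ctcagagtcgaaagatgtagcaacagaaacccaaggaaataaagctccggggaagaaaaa
KIF22 chosen probe: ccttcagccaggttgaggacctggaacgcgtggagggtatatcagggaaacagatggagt
KIF22 other probe: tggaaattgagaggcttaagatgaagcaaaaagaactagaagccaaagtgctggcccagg

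Over the 9 days, 15 of the 29 kinesins changed by limma's F test at an adjusted p under 0.05, where 42.3% of all genes did. Among them were 9 of the 10 mitotic kinesins, 1 of the 12 transport kinesins (KIF16B) and 5 of the 7 others. KIF18B had the largest F (adjusted p = 2.17e-06, rank 27 of all genes), followed by KIF20A (4.91e-06, rank 60). KIF2C, KIF23 and KIF11 came next, and each of these 5 had its highest mean before calving and its lowest at day +60 or day +180. KIF15 was the mitotic member that did not pass (adjusted p = 0.398). All 29 passed the filter on low values, as did all but 2 of the 20110 genes.

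Against day -30, no mitotic kinesin was called higher at any day by its chosen probe. This holds for the group as drawn here: KIF2A and KIF2B, relatives of KIF2C, were placed among the others, and KIF2B was called higher at day +15, as given below. At day -15 none of the 29 had even an unadjusted p under 0.05 in limma. The count that was lower by limma's test (adjusted p under 0.05) was 0 of 10 at day -15, 1 at day +1, 4 at day +15, 5 at day +30, 8 at day +60, 6 at day +120, 8 at day +180 and 6 at day +240. The share of all genes called lower in the same comparisons was 0.00497%, 4.3%, 7.71%, 4.26%, 16.7%, 2.7%, 10.8% and 7.08%, and the share called higher was 0%, 1.94%, 10.2%, 2.12%, 12.6%, 1.06%, 6.67% and 6.86%. For the 10 genes the median log2 difference was -0.28, -0.81, -0.93, -1.41, -2.00, -1.45, -1.71 and -1.35 in the same order, lowest at day +60. The median of all genes lay between -0.12 and 0.01 in these comparisons.

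The mean of the 10 mitotic kinesins on each array gives the same course. At day -30 it was -1.52, -1.38, -1.46 and -2.11 in yaks 1 to 4, and at day +60 it was -4.04, -4.07, -3.47 and -3.53, so that the groups did not overlap. At day +240 the values were -3.73, -3.62 and -3.69 in yaks 1 to 3 but -2.20 in yak 4, close to the lowest array of day -30. The mean of the 12 transport kinesins was -1.85 to -1.60 at day -30 and -1.98 to -1.72 at day +60, and these ranges overlap. In biopsies, fewer cells of a type and less RNA per cell cannot be told apart.

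**Figure D1:**
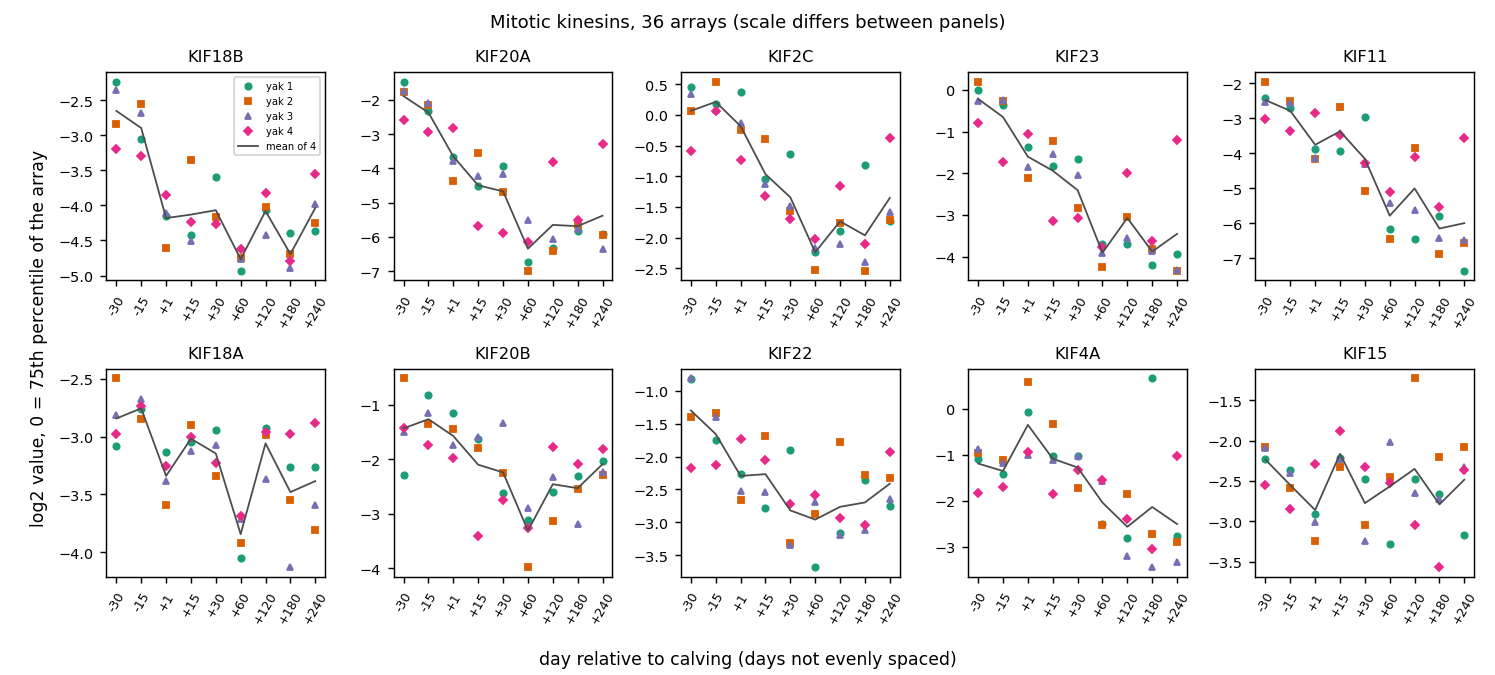
Log2 value (y axis, 0 is the array's 75th percentile) of the 10 mitotic kinesins at each of 9 days (x axis), with 1 point for each of 4 yaks and a line through the mean. The panels for KIF18B, KIF20A, KIF2C, KIF23 and KIF11 run down from day -30, and yak 4 stands above the other animals at day +240, as at -3.29 for KIF20A.

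KIF20A, which carries the chromosomal passenger complex to the central spindle, showed the largest difference from day -30 among the chosen probes. In yaks 1 to 4 it read -1.47, -1.78, -1.74 and -2.58 at day -30, and -2.32, -2.15, -2.08 and -2.92 at day -15. At day +1 it read -3.66, -4.36, -3.77 and -2.82, and at day +15 it read -4.52, -3.56, -4.22 and -5.69. Every animal was lower after calving than at day -30. At day +30 the values were -3.94, -4.69, -4.17 and -5.88, and at day +60 they were -6.73, -6.99, -5.51 and -6.15. The difference at day +60 was -4.46 ± 0.56 (SE, n = 4 a day, limma, adjusted p = 4.3e-06), with no overlap between the groups. Only 1 of the 4 arrays was well above background there. With normexp, a model-based background correction of the scanner signals, here with an offset of 50 units, the difference was -1.55, still called. Its size thus depends on how the background was treated. The fixed offset is a larger share of the signal on dimmer arrays, so it raises low values there more than at day -30. How much of a lost call or changed sign with normexp comes from the offset was not tested. Later values were -6.31, -6.42, -6.06 and -3.81 at day +120, -5.83, -5.64, -5.77 and -5.50 at day +180, and -5.93, -5.94, -6.37 and -3.29 at day +240. These 3 days were lower than day -30 in all 4 animals, and yak 4 was the highest array on each of them.

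KIF23, a subunit of the centralspindlin complex that bundles midzone microtubules, was above background on all 36 arrays. It read -0.01, 0.19, -0.26 and -0.80 in yaks 1 to 4 at day -30, and -0.37, -0.27, -0.25 and -1.72 at day -15. At day +1 the values were -1.37, -2.13, -1.85 and -1.07, below every array of day -30, though that difference did not pass (-1.38 ± 0.51, limma, adjusted p = 0.1). By day +60 the gene had fallen to -3.70, -4.25, -3.92 and -3.76, a difference of -3.69 ± 0.51 (limma, adjusted p = 1.19e-05). At day +180 it read -4.20, -3.83, -3.87 and -3.61, which was as low (-3.66 ± 0.51, limma, adjusted p = 2.57e-05). At day +240 yaks 1 to 3 lay between -4.34 and -3.95, and yak 4 at -1.20.

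KIF11, the motor that pushes the spindle poles apart, read -2.43, -1.95, -2.52 and -3.02 at day -30. It read -3.89, -4.17, -4.13 and -2.84 at day +1 and -3.93, -2.68, -3.41 and -3.48 at day +15, which overlap the first day. At day +60 it read -6.15, -6.46, -5.43 and -5.10, and the difference was -3.30 ± 0.58 (limma, adjusted p = 0.00018). Day +1, +15 and +30 did not pass against day -30, and all 4 later days did. With normexp the difference at day +60 was -0.94 and not called (limma, adjusted p = 0.187). At day +180 the values were -5.78, -6.87, -6.43 and -5.53 and the difference -3.67 ± 0.58 (limma, adjusted p = 0.000103), with 1 of 4 arrays well above background.

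KIF2C removes tubulin from microtubule ends at centromeres and corrects wrong attachments. Its values at day -30 were 0.45, 0.06, 0.35 and -0.59, and at day +1 they were 0.37, -0.24, -0.13 and -0.74, with no call between them (limma, adjusted p = 0.723). From day +15 on it was lower at every day. It read -2.23, -2.52, -2.17 and -2.02 at day +60, when all 4 animals were below day -30 by -2.31 ± 0.33 (limma, adjusted p = 1.76e-05). Without yak 3 the calls of day +15, +30, +120 and +240 were lost, those of day +15, +30 and +240 also without yak 2, and that of day +15 without yak 1.

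KIF18B, which trims astral microtubules, was the mitotic kinesin called at day +1. It read -2.24, -2.83, -2.35 and -3.19 at day -30 and -3.05, -2.55, -2.68 and -3.30 at day -15. At day +1 it read -4.15, -4.61, -4.11 and -3.85, below every array of either earlier day. The difference from day -30 was -1.53 ± 0.25 (limma, adjusted p = 0.000663) and that from day -15 was -1.28 (limma, adjusted p = 0.00569). It was called at every later day, with the largest difference at day +60 (-2.12 ± 0.25, limma, adjusted p = 1.5e-06), where the values were -4.93, -4.75, -4.76 and -4.62. With normexp it was called at day +180 alone, and the difference at day +60 was -0.42 (limma, adjusted p = 0.458). The step from day -15 to day +1 was not called without yak 1, 2 or 3.

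The other mitotic kinesins moved less by their chosen probe. KIF18A, which steadies chromosomes at the spindle equator, was -3.08, -2.49, -2.81 and -2.98 at day -30 and -4.05, -3.92, -3.72 and -3.69 at day +60. It was lower at day +60 (-1.002 ± 0.19, limma, adjusted p = 0.000499) and at day +180, but not at day +120, where its mean was -3.06. With normexp the difference at day +60 was 0.14 (limma, adjusted p = 0.767), and the call of day +180 was lost with quantile normalization, with normexp, without yak 2 or 3 and in the 8 arrays alone. KIF20B, which acts in the last step of cell division, was -2.29, -0.51, -1.50 and -1.43 at day -30 and -3.11, -3.98, -2.89 and -3.26 at day +60, a difference of -1.88 ± 0.38 (limma, adjusted p = 0.000792). These groups did not overlap for either gene, and the KIF20B call was lost with normexp (-0.96) and with array brightness as a covariate (-0.93). KIF22, which pushes chromosome arms from the poles, was -0.82, -1.40, -0.81 and -2.17 at day -30 and -3.68, -2.87, -2.70 and -2.58 at day +60. It was lower at each day from day +30 on, by between -1.66 and -1.11. All of these calls were lost with normexp, and those other than day +60 also without yak 3.

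KIF4A and KIF15 were not called at any day by the chosen probe, although KIF4A passed the F test (adjusted p = 0.0238). KIF4A, which binds chromosome arms and the midzone, was -1.09, -0.96, -0.89 and -1.84 at day -30 and -0.06, 0.59, -0.9997 and -0.94 at day +1. At day +180 it read 0.66 in yak 1 against -3.45 to -2.72 in the others. KIF15, which can stand in for KIF11 in holding the spindle open, stayed between day means of -2.86 and -2.16.

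Where a gene had several probes in the table, the probe chosen by its mean was in some cases not the one that moved. The other 3 probes of KIF15 were each highest at day -30 and fell by between -4.70 and -3.99 at day +60 (limma over all probes, adjusted p between 4.6e-05 and 0.000442), while the chosen probe differed by -0.33 ± 0.32. Probe C of KIF15 read -2.42, -1.50, -1.89 and -2.98 at day -30 and -6.10, -7.19, -7.85 and -6.44 at day +60. Across the 36 arrays the chosen probe and the others had correlations of -0.07 to -0.05, given as a description of arrays that share animals and slides. These 3 probes were well above background on 0 or 1 of 4 arrays at day +60, and the chosen probe on all 4.

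For KIF4A the other 3 probes fell at day +60 by -2.19, -3.29 and -3.70, against -0.85 ± 0.57 for the chosen one. Its other printed probe read -0.85, -0.23, -0.56 and -1.36 at day -30 and -4.46, -4.94, -4.36 and -4.05 at day +60, and was above background on all arrays of both days. For KIF22 all 3 probes fell, the chosen one by -1.66 and the others by -4.67 and -3.91. At day +60 the KIF4A probe with -3.29 was well above background on no array, and the KIF22 probe with -3.91 on 1. The size of these falls rests on signal near background. KIF24, which acts at centrioles and limits cilium growth, showed a split too: its chosen probe did not pass the F test, and its other probe was lower at day +180 (-2.11 ± 0.45, limma, adjusted p = 0.00199).

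Of the 20 kinesins with several probes, 7 had every probe called lower at day +60 (KIF2A, KIF2C, KIF11, KIF18A, KIF20B, KIF22 and KIF23), and a further 4 were called lower there by another probe alone (KIF1C, KIF4A, KIF13B and KIF15). At day +180 every probe was lower for 7 genes and another probe alone for 7, KIF5B among them. By their chosen probes, 16.7% of all genes were lower at day +60 and 10.8% at day +180. The share over all genes with several probes is not given here, and more probes give more chances of a call by another probe alone. No gene had probes called in opposite directions against day -30. With the mean of all probes of a gene, all 10 mitotic kinesins passed the F test, as did 8062 of all 20110 genes. All 10 were then lower at day +60, +180 and +240, and the share of all genes lower with that mean is not given here. What sets the probes of a gene apart was not tested.

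**Figure D2:**
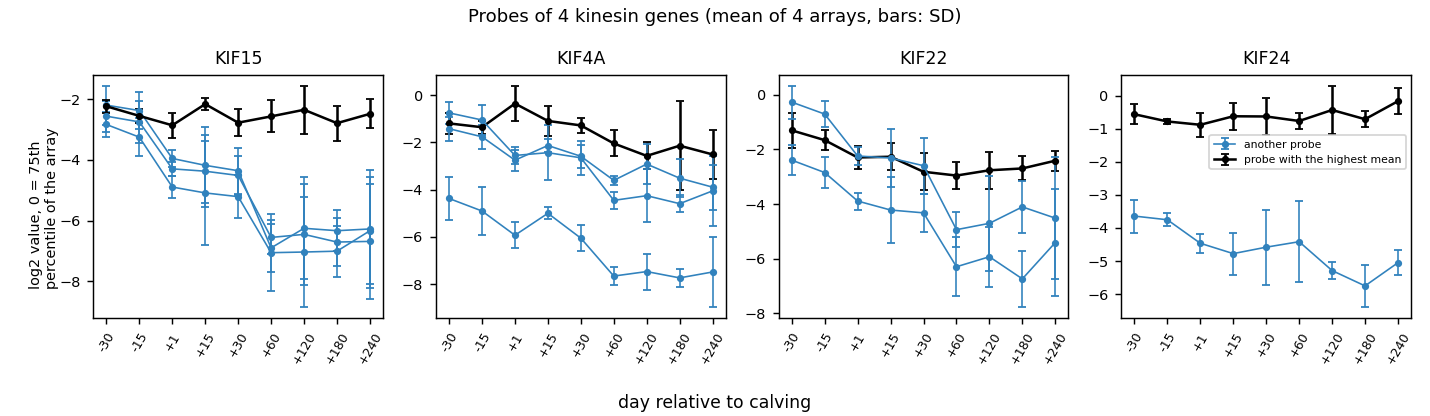
Mean of 4 arrays with its SD (y axis, log2 value, 0 is the array's 75th percentile) at each day (x axis) for every probe of KIF15, KIF4A, KIF22 and KIF24, with the probe of the highest mean in black and the others in blue. The black line of KIF15 stays between -2.86 and -2.16 while its blue lines fall by about 4 log2 units.

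Other genes of cell division were taken as a list of partners and relatives of the mitotic kinesins, of which 13 of 20 are in the table. All 13 passed the F test, where 42.3% of all genes did. The count lower than day -30 was 3 at day +1, 6 at day +15, 3 at day +30, 13 at day +60, 8 at day +120, 13 at day +180 and 11 at day +240, with none higher. At day +60, 16.7% of all genes were called lower, and the shares of the other days are given above. NUSAP1, which bundles spindle microtubules, was lower at day +60 by -3.09 ± 0.48 (limma, adjusted p = 3.86e-05). TPX2, the spindle activator of Aurora A, was lower by -2.13 ± 0.32 (limma, adjusted p = 2.91e-05), and cyclin B1 (CCNB1) by -4.78 ± 0.93. The lowest value well above background on the arrays of day +60 ran from -5.82 to -5.00. The means of CENPE (-7.13), ECT2 (-6.78) and RACGAP1 (-5.93) lay below that range then, and those of CDCA8 (-5.53) and CCNB1 (-5.23) within it. The size of these falls thus rests on signal near background. Aurora B (AURKB), the kinase of the complex that KIF20A carries, was lower by -3.83 ± 0.63.

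The mean of this list in yak 4 at day +240 was -2.15 against -4.47 to -3.81 in the other animals. KIF14, a midzone kinesin outside the table, was well above background on all 4 arrays of day -30 and of day -15, on 1 of 4 at day +1 and +15, on 2 at day +30, on 1 at day +120 and on none at day +60, +180 and +240. Of 13 regulators of mitotic transcription, 7 passed the F test, where 42.3% of all genes did, and the count was 1 with normexp and 2 without yak 1, 2 or 3. RBL1, a pocket protein that binds E2F, was lower at every day from day +1 on (-1.77 ± 0.22 at day +60, limma, adjusted p = 3.75e-06), and at none of them with normexp (-0.22 at day +60, limma, adjusted p = 0.699). FOXM1, MYBL2 and E2F1 were not called at day +60, at -0.30 ± 0.57, -0.27 ± 0.18 and -0.44 ± 0.41. The FOXM1 mean of day +60, -5.54, lay within the range of the lowest values well above background then (-5.82 to -5.00). Its difference thus rests on signal near background.

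Among the 12 transport kinesins, KIF16B, which moves early endosomes outward along microtubules, was the member that passed the F test (adjusted p = 0.00608). It read -1.15, -1.57, -1.29 and -1.05 at day -30 and -1.97, -2.59, -2.19 and -2.15 at day +30, without overlap. The differences from day -30 were -0.96, -0.77, -1.03, -1.06 and -0.98 at day +30, +60, +120, +180 and +240, each with an SE of 0.27 and each called. None of the 5 was called with normexp (-0.26 at day +60, limma, adjusted p = 0.514), and those of day +60, +180 and +240 were lost with quantile normalization. Without any 1 of the 4 animals the calls of day +30, +60 and +120 were lost. At day -15 it read -1.15, -1.59, -1.53 and -1.04, which overlaps day -30. The other probe of KIF16B, well above background on all 36 arrays, did not pass the F test (limma over all probes, adjusted p = 0.151). That probe was called lower than day -30 at day +180 alone, so the calls of the other days rest on the chosen probe.

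Single days were called for 3 further transport kinesins. KIF1A, which carries synaptic vesicle precursors in neurons, read -2.80, -2.72, -2.70 and -3.60 at day -30 and -4.74, -4.81, -3.38 and -3.97 at day +60, a difference of -1.27 ± 0.31 (limma, adjusted p = 0.00385) between groups that overlap. KIF5C, a heavy chain of conventional kinesin, was -5.26, -5.52, -5.07 and -5.57 at day -30 and -5.06, -4.15, -4.18 and -4.04 at day +60, higher by 1.00 ± 0.37 (limma, adjusted p = 0.0399). KIF17, known from dendrites and cilia, was -6.27, -6.10, -6.22 and -6.51 at day -30 and -5.10, -5.08, -5.49 and -4.32 at day +15, higher by 1.28 ± 0.45 (limma, adjusted p = 0.0468). Neither rise overlapped the values of day -30. With array brightness as a covariate KIF5C was -0.32 and KIF17 0.033, neither called, and KIF17 was not called with no replicate block (limma, adjusted p = 0.0535) or without any 1 of the animals, nor KIF5C without yak 2, 3 or 4. KIF1A was -0.043 with normexp, and not called without yak 1 or 2. The rise of KIF5C is that of its chosen probe. No probe of KIF5C passed the F test (limma over all probes, adjusted p = 0.145 for the chosen probe, 0.405 and 0.547 for the others). The other probes correlated with the chosen one at 0.35 and 0.14 across the arrays, given as a description.

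KIF5B, the heavy chain of conventional kinesin in most tissues, did not change by its chosen probe. It read 1.34, 2.43, 1.79 and 1.91 at day -30 and 1.96, 2.10, 2.23 and 2.25 at day +60, a difference of 0.27 ± 0.27. At day +180 it read 0.92, 1.87, 1.67 and 0.61 (-0.60 ± 0.27, limma, adjusted p = 0.12), and its other 3 probes were called lower there by -2.13, -1.20 and -1.09. KIF21A was not called at any day by its chosen probe, and another probe was called higher at day +60 (1.04 ± 0.37, limma, adjusted p = 0.0378). Its values at day -30 were -0.07, 1.15, 0.24 and 0.60, with differences between -0.87 and 0.67. The 3 motor subunits of kinesin-2, KIF3A, KIF3B and KIF3C, together with KIF1C, KIF13A and KIF13B, were not called at any day by their chosen probes, and those differences from day -30 lay between -1.05 and 0.63. Another probe was called lower for KIF1C at day +15 and +60 (-0.79 and -0.73), for KIF13B at day +60 and +180 (-0.66 and -0.69) and for KIF3B at day +180 (-1.81). That KIF3B probe was well above background on no array of day +180, so the size of its fall rests on signal near background.

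**Figure D3:**
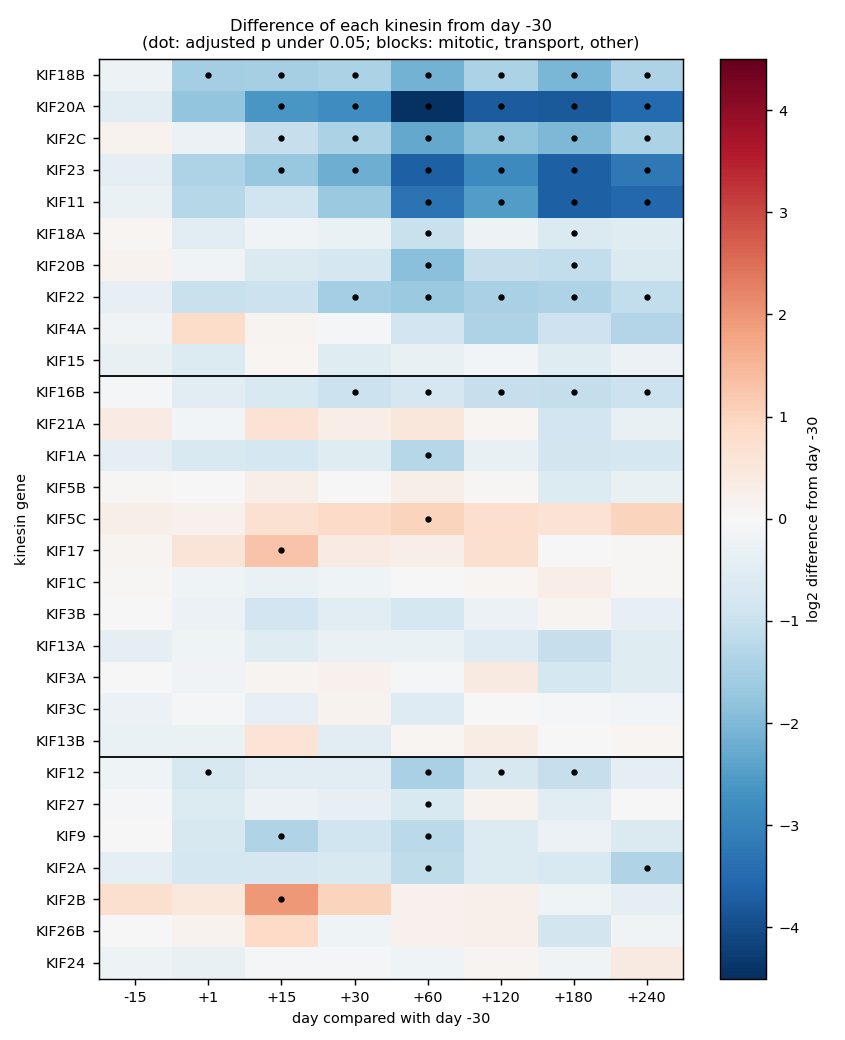
Log2 difference of each of the 29 kinesins (rows) from day -30 at each later day (columns), in colour, with a dot where limma's adjusted p was under 0.05 and lines between the mitotic, transport and other groups. The upper block is blue with dots from day +15 on, to -4.46 for KIF20A at day +60, and the middle block has few dots outside KIF16B.

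In the group of other kinesins KIF12, whose loss in humans causes a bile duct disease of the liver, had the largest F (adjusted p = 0.000105). It read -3.60, -3.74, -3.71 and -3.94 at day -30 and -4.47, -4.68, -4.32 and -4.36 at day +1, lower by -0.71 ± 0.20 (limma, adjusted p = 0.0296). At day +60 it read -5.61, -5.44, -4.79 and -4.98, with 2 of 4 arrays well above background, lower by -1.46 ± 0.20 (limma, adjusted p = 1.06e-05). It was also lower at day +120 and +180, and not called at day +240 (-0.43 ± 0.20). The groups of day -30 and day +60 did not overlap. The call of day +1 was lost without any 1 of the animals (limma, adjusted p between 0.0612 and 0.206), and with normexp none of the 4 days was called (0.35 at day +60).

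KIF27 and KIF9, known from motile cilia, were lower on few days. KIF27 was -4.29, -3.95, -3.95 and -4.02 at day -30 and -4.58, -4.62, -4.84 and -4.89 at day +60, a difference of -0.68 ± 0.22 (limma, adjusted p = 0.0204). KIF9 was -4.35, -4.51, -4.12 and -4.24 at day -30 and -5.74, -5.35, -5.29 and -6.32 at day +15, lower by -1.37 ± 0.38 (limma, adjusted p = 0.0161), and lower again at day +60 (-1.22 ± 0.38, limma, adjusted p = 0.0181). Neither pair of groups overlapped. KIF9 was well above background on 2 of 4 arrays at day +60. Its mean then, -5.52, lay within the range of the lowest values well above background on that day's arrays (-5.82 to -5.00). The other probe of KIF27 was not called lower at day +60 and did not pass the F test (limma over all probes, adjusted p = 0.166). The day +60 calls of both genes were lost with quantile normalization (KIF27 -0.25 and KIF9 -0.72), with brightness as a covariate (-0.37 and -0.21), with normexp (0.83 and 0.79) and without yak 3 or 4, and that of KIF27 without yak 2 as well. The day +15 call of KIF9 was lost with normexp, with brightness and without yak 1, 3 or 4.

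KIF2A and KIF2B are relatives of KIF2C that also take microtubules apart. KIF2A, which works at spindle poles and in growing neurites, was -0.61, -0.03, -0.56 and 0.01 at day -30 and -1.17, -2.15, -1.12 and -1.34 at day +60, lower by -1.15 ± 0.32 (limma, adjusted p = 0.00847). At day +240 it was lower by -1.37 ± 0.32 (limma, adjusted p = 0.00597), and both probes of the gene were called at both days. Neither day was called for the chosen probe with brightness as a covariate (-0.47 and -0.77) or without yak 2. KIF2B went the other way at day +15. It read -6.39, -7.11, -6.05 and -7.03 at day -30 and -5.01, -5.15, -3.29 and -5.40 at day +15, higher by 1.94 ± 0.61 (limma, adjusted p = 0.0286). The call was lost without any 1 of the animals (limma, adjusted p between 0.0596 and 0.153) and with brightness as a covariate (0.88, limma, adjusted p = 0.485). KIF2B and KIF17 were well above background on no array of day +180, so no fold is given for either there. KIF24 and KIF26B were not called by their chosen probes.

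**Figure D4:**
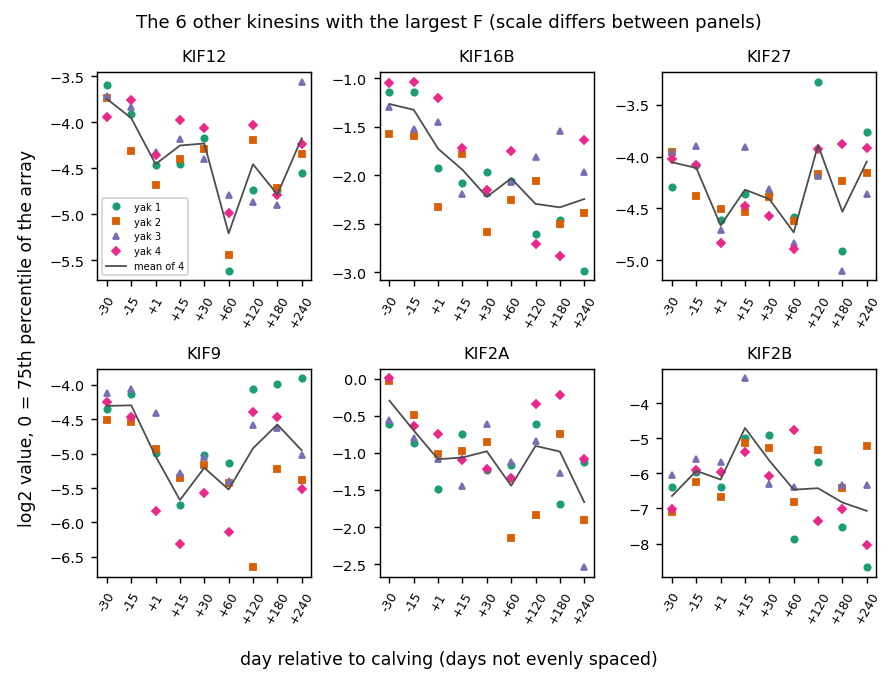
Log2 value (y axis, 0 is the array's 75th percentile) of the 6 kinesins outside the mitotic group with the largest F, by day (x axis), with 1 point for each of 4 yaks and a line through the mean. KIF12 has its lowest mean at day +60 and KIF16B lies lower from day +30 on, while KIF2B peaks at day +15 at a mean of -4.71.

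Between neighbouring days few kinesins were called: KIF18B lower from day -15 to day +1, where 1.79% of all genes were called in either direction, KIF12 lower from day +30 to day +60 (-0.98, limma, adjusted p = 0.0111, 0.88% of all genes) and KIF18A higher from day +60 to day +120 (0.79, limma, adjusted p = 0.044, 0.895% of all genes). The KIF12 and KIF18A steps were 0.49 and -0.048 with normexp, and neither was called with quantile normalization or without yak 1 or 2. The other 4 steps after calving gave 0 calls among the 29 (3, 3, 6 and 4 at an unadjusted p under 0.05 in limma), with 0.318%, 0.0149%, 0.338% and 0.801% of all genes called.

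Genes that serve transport kinesins, and those of their opposite motor, were also taken as lists. Of 17 light chains, adaptors and cargo linkers, 4 passed the F test, where 42.3% of all genes did. MAPK8IP1, a scaffold between kinesin-1 and its cargo, was -0.83 ± 0.25 at day +60 and 0.80 ± 0.25 at day +240, called lower and then higher, and TRAK1, which ties mitochondria to kinesin-1, was higher at day +60 (0.70 ± 0.21, limma, adjusted p = 0.0132). The day +60 calls of both were lost without yak 2 or 3, that of MAPK8IP1 at day +240 also with quantile normalization, and that of TRAK1 also with brightness (0.20). Of 20 genes of cytoplasmic dynein and dynactin, which run toward microtubule minus ends, 6 passed the F test and 5 were higher at day +60, where 42.3% and 12.6% of all genes did. The 5 became 0 with brightness as a covariate, 2 with quantile normalization and 1 to 3 with an animal left out, and the 6 became 1 without yak 3 and 2 without yak 1 or 2. The dynein heavy chain DYNC1H1 was higher by 0.54 ± 0.17 at day +60 and by 0.91 ± 0.17 at day +180 (limma, adjusted p = 0.000453), and the light chain DYNLL2 by 1.22 ± 0.32 at day +60. At day +60 DYNC1H1 was -0.042 with quantile normalization and -0.0090 with the mean of all probes, and DYNLL2 was 0.079 with brightness, none of them called.

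Some markers of other cells were also called at day +60, the day described here. At the other days no T cell marker was called against day -30. No fibroblast or macrophage marker was called against day -30 at any day, and the remaining lists had calls at some of the other days. At day +60, 3 of 5 T cell markers were lower (CD3D, CD2 and CD5, by -1.44, -1.39 and -1.49), where 16.7% of all genes were called lower. The count was 0 with brightness as a covariate or without yak 3 and 1 without yak 1 or 2. The summed T cell level was 0.78 to 1.89 against 2.40 to 2.86 at day -30, on the log2 scale. The summed level of 6 luminal epithelial markers was 7.05 to 7.35 at day +60 against 5.96 to 6.32 at day -30, with KRT19 and ELF5 called higher. Of the other 4, EPCAM had means of 3.36 and 2.79 at the later and the earlier day, KRT8 of 3.78 and 3.74, KRT18 of 1.85 and 2.59 and CDH1 of 1.57 and 2.15, none of them called. At day +60, 3 of 6 milk protein genes (CSN1S2, CSN3 and LALBA) were higher, where 12.6% of all genes were called higher. That share also applies to the luminal markers and to the counts that follow, and a count of 1 in lists this short is near it. The endothelial sum was 3.46 to 4.14 against 2.47 to 3.33 (2 of 5 markers higher), the adipocyte sum 5.19 to 6.71 against 3.43 to 4.30 (1 of 5 higher), the myoepithelial sum 5.80 to 6.08 against 5.04 to 5.64 (3 of 5 higher) and the nerve and Schwann cell sum 3.49 to 4.23 against 1.84 to 2.24 (1 of 4 higher). Sums of B and plasma cell markers were 4.15 to 4.75 against 3.81 to 4.08, and those of macrophage markers, 3.38 to 4.56, overlapped 3.89 to 4.08. None of 5 fibroblast markers was called at day +60 by limma (1 at an unadjusted p under 0.05), and their sum was 5.81 to 6.71 against 5.93 to 6.41. Each listed marker in the table was above background on at least 1 array of each day, except 1 B cell or plasma cell marker at day +15. The part of these markers in the kinesin differences was not tested.

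The calls depended on the background correction, on array brightness as a covariate and on single animals. With normexp background correction, which moves the median of all genes at day +60 from -0.12 to 0.36, 3 of 10 mitotic kinesins remained called at day +60 (KIF2C -1.82, KIF20A -1.55 and KIF23 -2.38) and 5 at day +180. With array brightness as a covariate KIF20A was -3.82 at day +60. Leaving out yak 3 took the lower mitotic kinesins from 6 to 1 at day +120 and from 5 to 0 at day +30, and leaving out yak 4 brought them from 1 to 4 at day +1. The 4 mitotic calls of day +15 became 2 without yak 1, 2 or 3, the 5 of day +30 became 2 without yak 2, the 6 of day +120 became 3 without yak 1, and the 8 of day +180 became 5 without yak 3. Outside the mitotic group the 6 that passed the F test became 1, 4, 2 and 2 without yak 1, 2, 3 and 4, and the 7 called at day +60 became 5, 2, 3 and 3. At day +60 the mitotic count was 8 whichever animal was left out.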

How the data were processed

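Tissue of 4 yaks at 9 days gave 36 single-colour arrays of a cattle design, scanned in 1 scan day. The authors' normalized table, as deposited, holds log2 values for 34997 of 43653 probes, made with GeneSpring 12 by setting each array's 75th percentile to 0, and tested in JMP Genomics 7, per the labels' and the submitters' processing notes. The scanner files hold, per the file headers, intensity values from Feature Extraction 10.7.3.1 and other quality marks (0 or 1, such as well above background), as deposited. Each column was matched to the scanner file with equal values (largest SD of a difference 0.00645, against at least 0.386 for the next file), whose marks and intensities were used. Arrays limit the precision by their number. No table value is missing and 0 spots are saturated.

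Differences were fitted in limma 3.58.1 (R 4.3.3, statmod 1.5.0; files were read with the package data.table, version 1.17.8) over all 20110 genes, with 1 mean per day, the animal as a random block (consensus correlation 0.0531), eBayes and Benjamini-Hochberg adjustment within each comparison: 8 with day -30, 7 steps and an F test. Errors are SE from 1 spread per gene over all arrays. Comparisons with day -30 share its arrays. The animal pairs the arrays: after subtraction of day means, arrays correlated at 0.156 on average within an animal and at -0.0523 between animals, and 33 of 36 arrays matched their own animal best. Each animal kept 1 position on the slides. Nothing says that an animal gave more than 1 biopsy a day, so the spread is that between animals. The code was tested on simulated data. Symbols come from the files; all 29 kinesins are also symbols of the yak RefSeq table (Bosgru_T2T1.0). Tables and figures were made in Python 3.11.15 with pandas 2.3.3, numpy 2.4.6 and matplotlib 3.10.9.

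Members, gene lists and tests were chosen with earlier results of these data known. By the rule for named genes, values by array are given for the 8 mitotic kinesins and the 6 others with the largest F, shortly for other members called, and up to 4 genes of other lists. KIF4A, KIF15, KIF5B, KIF21A, KIF24, KIF14 and the probes shown were added after their values were seen. The regulators FOXM1, MYBL2 and E2F1 are named outside that rule, as LIN54, LIN37 and RBL2 had a larger F. Alternatives were the block, quantile normalization, normexp, brightness, detection (at least 3 of 4 arrays of a day), probe means, leaving out an animal, and 8 arrays alone, and, chosen after seeing the data, leaving out the 2 arrays lowest in milk protein mRNA.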

Additional observations from a re-analysis of the deposited data

Results flagged for a closer look

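In 8 of 126 groups of 4 arrays (14 kinesins at 9 days) 1 array stood far from the other 3, where chance alone gives about 1 in 20, or 6.3 groups. Of these, 4 were yak 4 high late in lactation: KIF20A at -3.81 at day +120 and at -3.29 at day +240, KIF2C at -0.38 at day +240 and KIF23 at -1.20 at day +240. Yak 4 was low before or soon after calving in others: KIF23 at -1.72 at day -15 and KIF20B at -3.40 at day +15. The remaining arrays were KIF18B at -3.60 in yak 1 at day +30, the highest, and KIF18A at -3.37 in yak 3 at day +120, the lowest. At day +120 yak 4 is also the array with a milk protein list mean of 0.04, while at day +240 its mean was 7.33, within the range of the other animals.

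KIF14, outside the table, was well above background on 13 of 36 arrays, with all 4 arrays of day -30 and of day -15 among them.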

How the results depend on the processing

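Among the named differences, a change of sign came with normexp, except those named next. With normexp, at day +60 against day -30, KIF12 was 0.35, KIF18A 0.14, KIF27 0.83 and KIF9 0.79, the other probe of KIF24 0.54 and 1 other probe of KIF4A 0.28. At the steps, KIF12 was 0.49 to day +60, and KIF18A -0.048 and RBL1 -0.21 to day +120. With brightness as a covariate KIF5C was -0.32 at day +60 and DYNLL2 -0.0089 at day +240, and DYNC1H1 at day +60 was -0.042 with quantile normalization and -0.0090 with the mean of all probes. None of these values was called. At day +60, 57.0% of all calls were lower, against 16.1% with normexp and 53.6% with quantile normalization. At day +180 the split was 61.8%, 44.6% and 50.7%. Over all genes the F test called 8500, against 4633 with normexp, 7434 without the animal block, 10220 without the 2 arrays lowest in milk protein mRNA, and 4185, 3284, 2116 and 6324 without yak 1, 2, 3 and 4. The cause of these changes was not tested, beyond the fewer arrays.

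With normexp the F test called 4 mitotic kinesins (in place of 9) and 0 of the rest (in place of 6). Mitotic kinesins lower than day -30 then numbered 0, 2, 3, 3, 3 and 5 at day +1, +15, +30, +60, +120 and +180, and the rest of the kinesins gave 0, 1, 0, 0, 0 and 1 calls at day +1, +15, +30, +120, +180 and +240, with 0 calls at the steps to day +1, to day +60 and to day +120. With brightness as a covariate, which also takes up part of the differences between days, the F test called 10 non-mitotic kinesins. At day +1 it gave 3 mitotic and 4 other calls, 5, 9 and 4 other calls at day +30, +180 and +240, and 2, 2 and 5 calls at the steps to day +1, +60 and +120. Quantile normalization gave 2 mitotic calls at day +1, 1 other call at day +120, and 0 calls at the steps to day +60 and +120. The mean of all probes gave 4, 1, 5 and 1 other calls at day +60, +120, +180 and +240, 10 mitotic calls at day +240 and 0 at the step to day +120. Fitting just the 8 arrays of each pair of days gave 4 mitotic and 3 other calls at day +1, 8, 2 and 0 other calls at day +15, +30 and +120, and 5, 3, 0 and 0 calls at the steps to day +1, +15, +60 and +120. Without the 2 arrays lowest in milk protein mRNA there were 2 mitotic calls at day +1, 6 other calls at day +180, and 2 and 0 calls at the steps to day +60 and +120.

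The animal pairs the arrays. With no replicate block, 1 other call at day +120 and 0 at the step to day +120 were found. KIF17 at day +15, KIF12 at day +120 and the KIF18A step then had adjusted p = 0.0535, 0.0527 and 0.0614. With the animal as a fixed replicate block the counts stayed within 1.5 times, and in the ordinary linear model of each gene with that block the step to day +120 gave 2 calls. KIF2B's F test missed the threshold in each of these (adjusted p between 0.0593 and 0.0888). The detection filter moved no count.

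Leaving out each animal in turn, the F test called 6 to 9 mitotic kinesins and 1 to 4 others. Mitotic kinesins lower numbered 1 to 4, 2 to 5, 0 to 5, 8 to 8, 1 to 6, 5 to 9 and 4 to 8 at day +1, +15, +30, +60, +120, +180 and +240. Other calls numbered 0 to 0, 0 to 1, 0 to 0, 2 to 5, 0 to 1, 1 to 2 and 0 to 2 at the same days, and the steps to day +1, +60 and +120 gave 0 to 3, 0 to 3 and 0 to 1. The lowest mitotic count at day +30, 0, and at day +120, 1, came without yak 3.

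Detection limits the low values: at day +60 KIF20A was well above background on 1 of 4 arrays and KIF11 on 2, so the size of their falls there rests on signal near background. Slide and day cannot be told apart, and the day of each array rests on the table's record.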
